A study of Homo sapiens with 30 samples.

Results

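Transcript levels of 9 genes of the interleukin 6 (IL6) cytokine family and its signalling chain were followed in human cancer cells given ML-792, the compound labelled ML00754792, which blocks the enzyme that activates SUMO for conjugation to proteins, or given DMSO. The 9 genes, of 30373 in the deposited table, were chosen by name: the ligands IL6, IL11, LIF and CLCF1, the receptor subunits IL6ST, LIFR and OSMR, the transcription factor STAT3 and its feedback inhibitor SOCS3. They were proposed with earlier results of these data known, among them IL11 and IL6 in MDAMB231 cells and LIF in COLO205 cells at 16 h, so the ML-792 comparisons in those lines are described here without a test. The 30 libraries form 10 groups of 3, which the labels call biological triplicates. At 16 h the groups are MDAMB231 (a breast cancer line), COLO205 and HCT116 (colorectal cancer lines), each with 500 nM ML-792 or 0.01% DMSO. At 3.5 h all groups are HCT116 cells, with 500 nM ML-792 or 0.01% DMSO, either heat shocked or not. Heat shocked cells had 2 h of ML-792 or DMSO, then 0.5 h at 43 °C and 1 h of recovery at 37 °C. No group carries a genetic change named in the labels, and each line is a single established line, so the lines stand for themselves and not for a tumour type.

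Cytokines of the IL6 family signal through IL6ST (gp130), a receptor subunit that they share. IL6 and IL11 first bind their own receptors, IL6R and IL11RA, and then assemble gp130 pairs, whereas LIF and CLCF1 use gp130 joined to LIFR, and oncostatin M uses gp130 joined to OSMR or LIFR. The assembled receptors activate Janus kinases, which phosphorylate STAT3, and STAT3 induces SOCS3, which in turn blocks gp130 and the kinases.

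Levels are deposited FPKM values, which are fragment numbers set against transcript length and sequencing depth, given as mean ± SD with n = 3. Changes are differences of log2(FPKM + 1) ± SE from limma, the first named group minus the second, and this scale understates the fold changes of low genes. A change counted as called where its p, adjusted by Benjamini-Hochberg across every gene of that comparison, was under 0.05. Estimated depth was about 29.5 to 37.9 M (mega) fragments at 16 h, 40.4 to 60.1 M with heat shock and 52.2 to 79.6 M at 3.5 h without it. Replicates of a group correlated across genes at 0.996 or more. Of 6 mesenchymal markers, 5 in MDAMB231, 2 in COLO205 and 5 in HCT116 had a median of at least 1 FPKM, with medians of 861, 0 and 1.5 FPKM for VIM and of 125, 17.6 and 126 FPKM for CD44 in that order of lines. Of 7 markers of other cell types, 3 in MDAMB231, 1 in COLO205 and 2 in HCT116 had such a median. Among them the macrophage gene CD68 had medians of 54.3, 158 and 3.79 FPKM and the fibroblast gene COL1A1 had 2.66, 0.640 and 6.20 FPKM in the same order. The leukocyte gene PTPRC stayed at or under 0.0593 FPKM and the T cell gene CD3E at or under 0.0344 FPKM in all 30 libraries. The part of these markers in the differences between lines was not tested. Of 7 markers of colorectal epithelium, 5 in COLO205 and 3 in HCT116 had a median of at least 1 FPKM, and CDX2 had medians of 0.517 FPKM in COLO205 and 5.49 FPKM in HCT116. The 3.5 h and 16 h libraries, and the heat shocked and other 3.5 h libraries, carry separate runs of label numbers, so time or heat shock cannot be told apart from the set in which the samples were handled.

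RefSeq promoter windows (GRCh38.p14, 250 bases before and 50 after a start) were held for 7 of the 9 genes, in 10 windows. They were searched on both strands for TGANTCA (AP-1), TGACGTCA (CRE), GGANTTTCC (an NF-kB core) and TTCNNNGAA (STAT). TTCNNGAA, an inverted pair of heat shock element units (here a heat shock pair), was searched for as well. The bases before the start are printed for the 2 genes that were higher with ML-792 in MDAMB231 cells, IL11 and IL6, and for SOCS3, which rose with heat shock, with each match in capitals. The IL11 stretch lies at chr19:55370464-55370713 on the minus strand, the IL6 stretch at chr7:22726950-22727199 on the plus strand, and the SOCS3 stretch, before the first of its 2 listed starts, at chr17:78360926-78361175 on the minus strand.
IL11: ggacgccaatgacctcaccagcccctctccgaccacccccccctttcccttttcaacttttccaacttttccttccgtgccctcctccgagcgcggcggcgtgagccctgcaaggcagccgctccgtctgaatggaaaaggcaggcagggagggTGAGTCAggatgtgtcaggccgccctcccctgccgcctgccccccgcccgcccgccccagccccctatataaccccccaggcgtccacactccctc
IL6: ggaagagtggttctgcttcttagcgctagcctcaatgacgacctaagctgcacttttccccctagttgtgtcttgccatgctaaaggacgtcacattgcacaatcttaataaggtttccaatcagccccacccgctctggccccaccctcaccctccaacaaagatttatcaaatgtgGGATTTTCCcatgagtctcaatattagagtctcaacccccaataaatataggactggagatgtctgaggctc
SOCS3: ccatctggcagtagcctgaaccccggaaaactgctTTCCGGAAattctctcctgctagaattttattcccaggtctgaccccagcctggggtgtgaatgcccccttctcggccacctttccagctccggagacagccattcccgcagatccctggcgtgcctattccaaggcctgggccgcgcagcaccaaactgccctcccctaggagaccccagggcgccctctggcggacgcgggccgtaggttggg
The IL11 window held TGAGTCA at bases 155 to 161, and 7.71% of all 35116 windows held an AP-1 match. The IL6 window held GGATTTTCC at bases 179 to 187, where 1.64% of windows held the NF-kB core. The first SOCS3 window held TTCCGGAA at bases 36 to 43, where 7.74% of windows held a heat shock pair. The second SOCS3 window held no match to any of the motifs searched. The STAT3 window also held a heat shock pair (bases 120 to 127), 2 of 3 LIFR windows held a STAT match (7.66% of windows) and the OSMR window held an AP-1 match after its start. A match is a run of letters only, and no match overlapped another in the printed stretches.

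The lines differed in which ligands they transcribed before any ML-792 was given. With DMSO at 16 h, MDAMB231 cells transcribed all 4 ligands, whereas LIF made up most of the ligand transcript in both colorectal lines. IL6, the founding ligand of the family, had 12.6, 13.1 and 13.7 FPKM in the MDAMB231 libraries, and was listed at 0 in all 3 COLO205 libraries and in 2 of the 3 HCT116 libraries. Its remaining HCT116 value, 0.0248 FPKM, corresponds to about 1 fragment. IL11, a ligand studied in bone, platelets and fibrosis, had 4.40, 4.26 and 4.18 FPKM in MDAMB231 cells, against 0.172, 0.0907 and 0.103 FPKM in COLO205 and 0.521, 0.469 and 0.669 FPKM in HCT116 cells. No IL6 or IL11 value of MDAMB231 cells overlapped those of another line. Both genes passed the filter on low values (1 FPKM in at least 3 libraries) through MDAMB231 alone, so no test is given for them between lines. The share of all genes without overlap between lines is not given here, but 83.6% to 86.4% were called between lines. In this bulk RNA, fewer cells transcribing a gene and less RNA of it per cell cannot be told apart. LIF, known for keeping mouse embryonic stem cells undifferentiated, ran the other way, with 15, 15.4 and 15.1 FPKM in MDAMB231, 21.2, 21.0 and 19.7 FPKM in COLO205 and 43.6, 43.8 and 46.5 FPKM in HCT116 cells. The lines did not overlap in LIF, and LIF was lower in MDAMB231 than in HCT116 (-1.5 ± 0.05, limma adjusted p = 2.7e-15). It was also lower in MDAMB231 than in COLO205 (-0.42 ± 0.05), given without a test because LIF in COLO205 cells took part in the choice of the genes. CLCF1, a ligand that supports B cells and neurons, averaged 15.5 ± 0.37 FPKM in MDAMB231, 4.44 ± 0.57 FPKM in COLO205 and 4.82 ± 0.23 FPKM in HCT116 cells. It was higher in MDAMB231 than in HCT116 (1.5 ± 0.08, adjusted p = 1.7e-12), and COLO205 and HCT116 overlapped (-0.10 ± 0.08, adjusted p = 0.23).

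**Figure D1:**
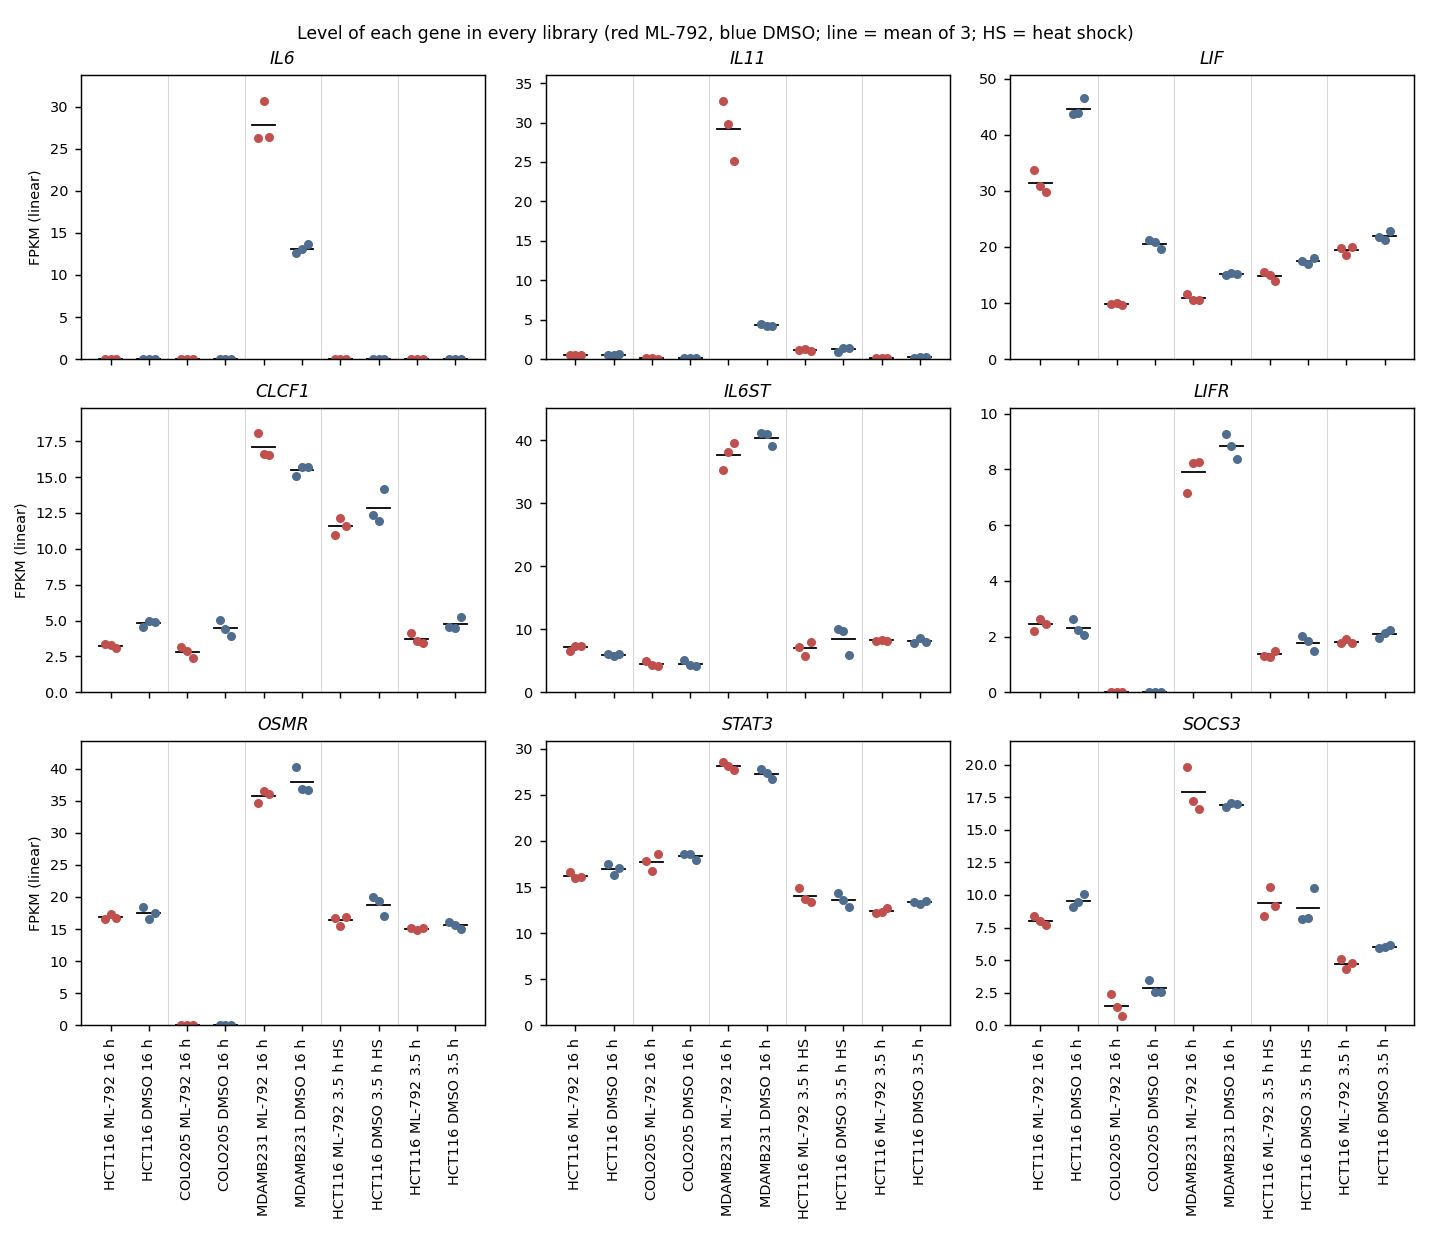
FPKM of each of the 9 genes (y axes, linear, each panel on its own scale) in every library of the 10 groups (x axis), with ML-792 in red, DMSO in blue and a line at the mean of 3 libraries. IL6 stands above 12 FPKM only in the MDAMB231 groups, LIFR and OSMR lie at or near 0 in COLO205, and CLCF1 and SOCS3 are higher in the heat shocked HCT116 groups than in the 3.5 h groups without heat shock.

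OSMR and LIFR separated COLO205 cells from the other lines, whereas IL6ST separated MDAMB231 cells from both colorectal lines. OSMR, the oncostatin M receptor subunit, had 40.2, 36.8 and 36.6 FPKM in MDAMB231 cells with DMSO, 0, 0.00818 and 0.00925 FPKM in COLO205 and 18.4, 16.6 and 17.5 FPKM in HCT116 cells. LIFR, the partner of gp130 for LIF and CLCF1, averaged 8.84 ± 0.44 FPKM in MDAMB231 and 2.30 ± 0.30 FPKM in HCT116 cells and was listed at 0 in all 3 COLO205 libraries with DMSO. Neither gene reached 0.03 FPKM in any COLO205 library, so the line with 20.6 ± 0.82 FPKM of LIF had almost no LIFR transcript at this depth. IL6ST, the shared signalling subunit, averaged 40.4 ± 1.2 FPKM in MDAMB231, 4.57 ± 0.47 FPKM in COLO205 and 5.99 ± 0.15 FPKM in HCT116 cells. It was higher in MDAMB231 than in HCT116 by 2.57 ± 0.06 (limma adjusted p = 5.2e-17) and lower in COLO205 than in HCT116 by a log2 difference of -0.33 ± 0.06 (adjusted p = 0.00013). Among receptor genes outside the chosen 9, IL31RA stood in the same order, with 4.57 ± 0.20 FPKM in MDAMB231, 0.00340 ± 0.0059 FPKM in COLO205 and 0.0506 ± 0.028 FPKM in HCT116 cells with DMSO. IL6R, which binds IL6, averaged 0.127 ± 0.027 FPKM in MDAMB231, 5.0 ± 0.23 FPKM in COLO205 and 1.48 ± 0.069 FPKM in HCT116 cells. IL11RA averaged 1.90 ± 0.21, 2.34 ± 0.31 and 3.39 ± 0.31 FPKM in MDAMB231, COLO205 and HCT116 cells, in that order. The line with the highest IL6 level was thus the one with the lowest IL6R level.

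STAT3 transcript varied least between lines, with 27.3 ± 0.55 FPKM in MDAMB231, 18.4 ± 0.34 FPKM in COLO205 and 17.0 ± 0.60 FPKM in HCT116 cells with DMSO. SOCS3 averaged 16.9 ± 0.15, 2.88 ± 0.55 and 9.52 ± 0.50 FPKM in the same lines. Of the 9 genes, 9 were called between MDAMB231 and HCT116 (83.6% of all genes tested were called), 9 between MDAMB231 and COLO205 (86.4%) and 7 between COLO205 and HCT116 (84.9%), shares close to those of all genes. IL6 and IL11 had to differ by the filter, and LIF in COLO205 cells took part in the choice of the genes, as said. All but LIF were higher in MDAMB231 than in either other line.

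In MDAMB231 cells at 16 h, ML-792 went with more IL11 and IL6 transcript, less LIF, and little difference in the receptors. These values took part in the choice of the genes, so they are described without a test. IL11 had 32.7, 29.8 and 25.1 FPKM with ML-792, against 4.40, 4.26 and 4.18 FPKM with DMSO, a ratio of means of 6.83 (2.51 ± 0.07 on the log2 scale). IL6 had 26.3, 30.7 and 26.4 FPKM with ML-792, against 12.6, 13.1 and 13.7 FPKM with DMSO, a ratio of 2.11 (1.02 ± 0.05). For both genes every ML-792 library was above every DMSO library, as in 17.3% of all genes. LIF had 11.5, 10.5 and 10.5 FPKM with ML-792, against 15, 15.4 and 15.1 FPKM with DMSO (ratio 0.717, -0.45 ± 0.05). Every ML-792 library was below every DMSO library in LIF, and the share of all genes lower in this way is not given here. CLCF1 had 18.1, 16.6 and 16.5 FPKM with ML-792, against 15, 15.7 and 15.7 FPKM with DMSO, a difference of 0.13 ± 0.08 with no overlap. The receptor subunits were slightly lower with ML-792. LIFR had 7.89 ± 0.63 FPKM with ML-792 against 8.84 ± 0.44 FPKM with DMSO, and OSMR had 35.7 ± 1.0 FPKM against 37.9 ± 2.0 FPKM. Neither LIFR nor OSMR overlapped between ML-792 and DMSO, again with no share of all genes given. IL6ST overlapped (37.7 ± 2.1 FPKM with ML-792 against 40.4 ± 1.2 FPKM with DMSO). STAT3 (28.1 ± 0.45 against 27.3 ± 0.55 FPKM) and SOCS3 (17.9 ± 1.7 against 16.9 ± 0.15 FPKM) overlapped between ML-792 and DMSO. The call rule took 3 of the 9 and 16.9% of all genes, from which nothing is read, since these values helped choose the genes.

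The summed FPKM of the 4 ligands was 84.9 ± 5.5 with ML-792 and 48.0 ± 0.92 with DMSO in MDAMB231 cells. IL11 made up 34.3 ± 2.5% of that sum with ML-792 and 8.91 ± 0.40% with DMSO. LIF made up 12.8 ± 0.70% with ML-792 and 31.5 ± 0.43% with DMSO, and CLCF1 made up 20.2 ± 1.1% with ML-792 and 32.2 ± 0.17% with DMSO. IL6 made up 32.7 ± 2.8% with ML-792 and 27.3 ± 0.72% with DMSO.

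**Figure D2:**
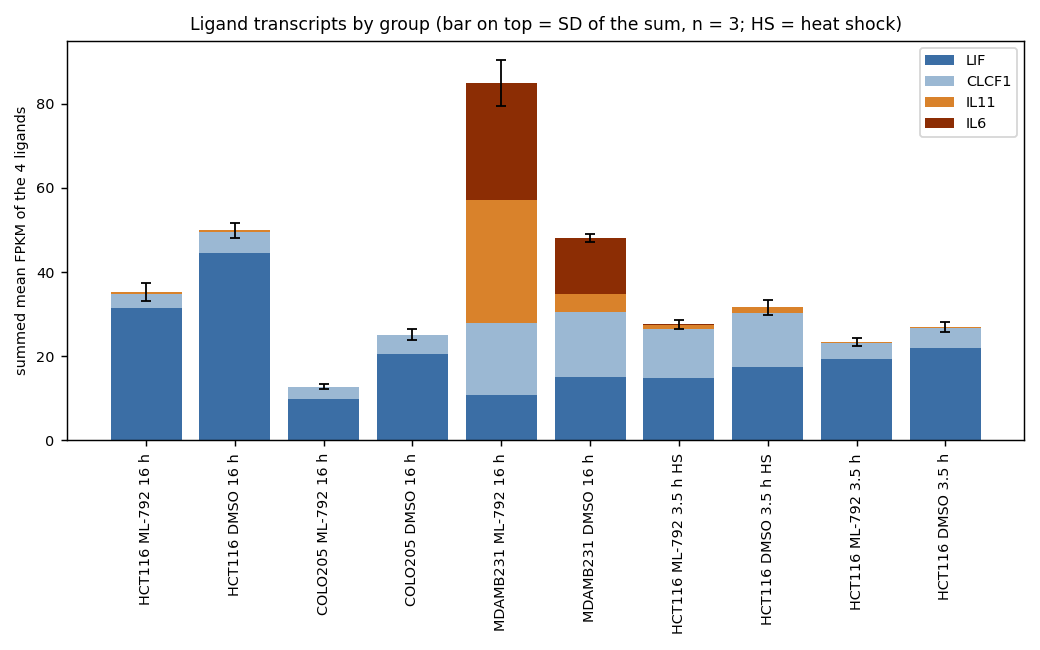
Stacked mean FPKM of the 4 ligand genes (y axis, from 0) in each of the 10 groups (x axis), with the SD of the ligand sum over 3 libraries as the bar on top. IL6 and IL11 together fill most of the MDAMB231 bar with ML-792 (sum 84.9), LIF fills most of each bar of the colorectal lines at 16 h, and CLCF1 takes 42.0% of the heat shocked HCT116 bar with ML-792 and 40.5% with DMSO.

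In COLO205 cells at 16 h, LIF, CLCF1 and SOCS3 were lower with ML-792, again as a description. LIF had 9.77, 10.1 and 9.67 FPKM with ML-792, against 21.2, 21.0 and 19.7 FPKM with DMSO, a ratio of 0.478 (-0.99 ± 0.05). CLCF1 had 3.19, 2.87 and 2.37 FPKM with ML-792, against 5.03, 4.40 and 3.90 FPKM with DMSO (-0.52 ± 0.08). SOCS3 had 2.38, 1.42 and 0.691 FPKM with ML-792, against 3.51, 2.58 and 2.54 FPKM with DMSO (-0.68 ± 0.17), its ML-792 values being spread widely. Without the third ML-792 library the SOCS3 difference was -0.43. None of these 3 genes had overlapping groups, and every ML-792 library was below every DMSO library in 23.7% of all genes. IL6ST (4.53 ± 0.43 against 4.57 ± 0.47 FPKM) and STAT3 (17.8 ± 0.93 against 18.4 ± 0.34 FPKM) overlapped, IL6 was listed at 0 in all 6 libraries, and LIFR and OSMR stayed under 0.03 FPKM. The call rule took 3 of the 9 and 37% of all genes, from which nothing is read here either. The ligand sum was 12.7 ± 0.56 FPKM with ML-792 and 25.2 ± 1.4 FPKM with DMSO.

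In HCT116 cells at 16 h, where a test was open, LIF and CLCF1 fell and IL6ST rose with ML-792. LIF had 33.8, 30.8 and 29.8 FPKM with ML-792, against 43.6, 43.8 and 46.5 FPKM with DMSO, and fell by 0.49 ± 0.05 on the log2 scale (limma adjusted p = 2.5e-06). CLCF1 had 3.38, 3.31 and 3.08 FPKM with ML-792, against 4.56, 4.99 and 4.91 FPKM with DMSO, and fell by 0.45 ± 0.08 (adjusted p = 0.00059). Both ligands were lower in 3 of 3 ML-792 libraries than in any DMSO library, as were 13.1% of all genes. IL6ST had 6.63, 7.37 and 7.34 FPKM with ML-792, against 6.02, 5.82 and 6.12 FPKM with DMSO, and rose by 0.21 ± 0.06 (adjusted p = 0.033). Its groups did not overlap, and the share of all genes higher in this way is not given here. The IL6ST call was lost with no filter (adjusted p = 0.052) and with other scalings (0.0593 and 0.107). It was also lost when any of 5 of the 6 libraries was left out (highest 0.129). SOCS3 averaged 8.04 ± 0.35 FPKM with ML-792 and 9.52 ± 0.50 FPKM with DMSO, a difference that did not pass (-0.22 ± 0.17, adjusted p = 0.44) although the groups did not overlap. It was called when these 6 libraries were fitted alone (adjusted p = 0.0412), a fit that called 1316 of 12355 genes. LIFR, OSMR and STAT3 overlapped, with differences of 0.06, -0.05 and -0.06. IL11 stayed low, at 0.536 ± 0.023 FPKM with ML-792 and 0.553 ± 0.10 FPKM with DMSO, and IL6 had at most about 1 fragment in any of the 6 libraries. In all, 3 of the 9 were called, where 14.7% of all genes were. The share of LIF in the ligand sum was 89.2 ± 0.42% with ML-792 and 89.2 ± 0.30% with DMSO, while the sum itself was 35.3 ± 2.2 FPKM with ML-792 and 50.0 ± 1.8 FPKM with DMSO.

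After 3.5 h of ML-792 without heat shock, none of the 8 genes tested in HCT116 cells was called by limma, where 1.21% of all genes were. Of the 8, 3 had an unadjusted p under 0.05, a threshold for which the share of all genes is not given here or below. LIF had 19.9, 18.5 and 20.0 FPKM with ML-792, against 21.7, 21.2 and 22.9 FPKM with DMSO (-0.17 ± 0.06, adjusted p = 0.33). CLCF1 had 4.11, 3.59 and 3.40 FPKM with ML-792, against 4.53, 4.48 and 5.26 FPKM with DMSO (-0.29 ± 0.08, adjusted p = 0.16). SOCS3 had 5.12, 4.32 and 4.77 FPKM with ML-792, against 5.97, 5.97 and 6.17 FPKM with DMSO (-0.30 ± 0.10, adjusted p = 0.30). In each of these 3 genes, and in LIFR and STAT3, every ML-792 library was below every DMSO library, as in 13.3% of all genes. All of LIF, CLCF1 and SOCS3 were called when these 6 libraries were fitted without the heat shocked ones (adjusted p between 0.0115 and 0.0411), a fit that called 728 of 11611 genes.

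The ML-792 difference of LIF was larger at 16 h than at 3.5 h in HCT116 cells, by -0.33 ± 0.07 on the log2 scale (limma adjusted p = 0.0285). It was the only one of 7 genes tested that was called for this contrast, where 2.4% of all genes were. The call was lost with no filter (adjusted p = 0.0668) and when any of 8 of the 12 libraries was left out (highest 0.0874). The level of LIF with DMSO also differed between these sets, with 44.6 ± 1.6 FPKM at 16 h and 21.9 ± 0.85 FPKM at 3.5 h. CLCF1 showed -0.16 ± 0.09 (adjusted p = 0.42) and SOCS3 0.08 ± 0.08 (adjusted p = 0.65) for the same contrast.

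**Figure D3:**
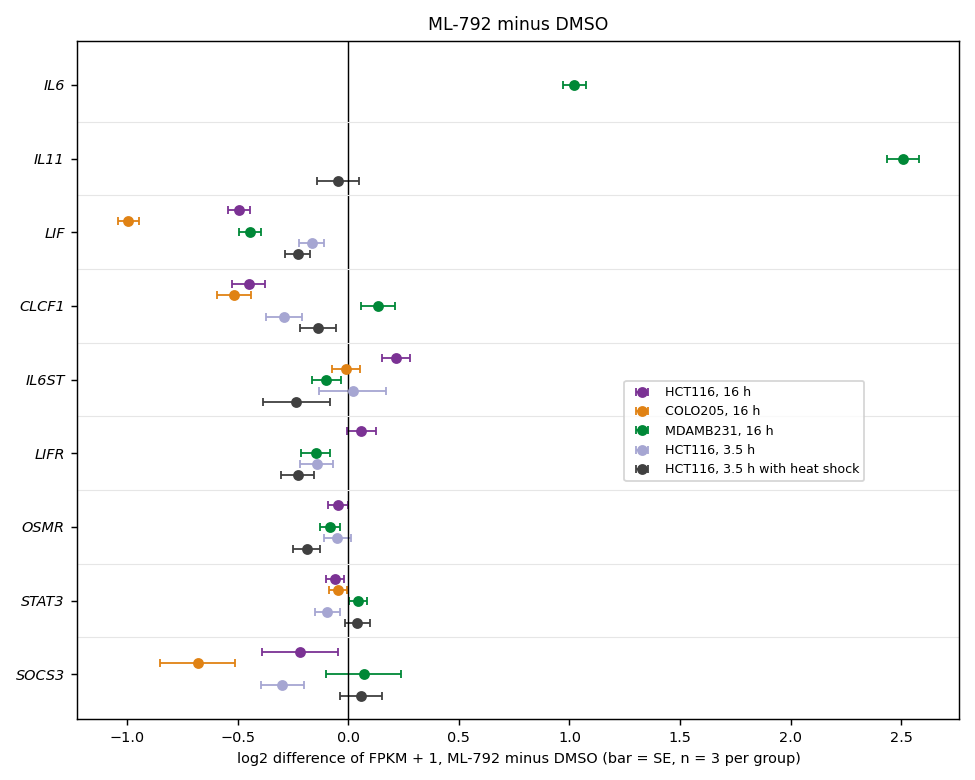
Difference of log2(FPKM + 1), ML-792 minus DMSO (x axis, bar = SE, n = 3 per group), for each of the 9 genes (rows) in 5 settings (colours), leaving out settings in which both group means were under 1 FPKM. LIF lies left of 0 in all 5 settings, between -0.99 and -0.17, IL11 and IL6 lie far right in MDAMB231 only, and CLCF1 is right of 0 in MDAMB231 and left of it in the other 4.

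Heat shock went with more CLCF1, IL11 and SOCS3 transcript and less LIF in HCT116 cells, with ML-792 and with DMSO alike. The 0.5 h at 43 °C and the recovery were the added steps, and the sets of samples differ as stated. In ML-792 CLCF1 had 11, 12.2 and 11.6 FPKM after heat shock, against 4.11, 3.59 and 3.40 FPKM without it, and rose by 1.42 ± 0.08 (limma adjusted p = 2.3e-08). In DMSO it had 12.3, 12 and 14.2 FPKM after heat shock, against 4.53, 4.48 and 5.26 FPKM without it, and rose by 1.26 ± 0.08 (adjusted p = 6.8e-08). The lowest heat shocked library held more than 2 times the CLCF1 level of the highest one without heat shock. SOCS3 in ML-792 had 8.36, 10.6 and 9.18 FPKM after heat shock, against 5.12, 4.32 and 4.77 FPKM without it, and rose by 0.85 ± 0.10 (adjusted p = 1.1e-05). SOCS3 in DMSO had 8.17, 8.26 and 10.5 FPKM after heat shock, against 5.97, 5.97 and 6.17 FPKM without it, and rose by 0.50 ± 0.10 (adjusted p = 0.0010). No SOCS3 value overlapped between heat shock and none in either treatment. The share of all genes without such overlap is not given here, but 61.7% were called in ML-792 and 49.5% in DMSO.

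IL11 in ML-792 had 1.15, 1.33 and 0.993 FPKM after heat shock, against 0.205, 0.185 and 0.187 FPKM without it, a ratio of means of 6.03. In DMSO it had 0.876, 1.40 and 1.44 FPKM after heat shock, against 0.204, 0.305 and 0.238 FPKM without it, a ratio of 4.96. IL11 passed the filter only through the heat shocked libraries, so it had to differ and no test is given. The values rest on an estimated 20.6 to 50.6 fragments per library without heat shock and 96.5 to 167 with it. LIF in ML-792 had 15.5, 15 and 14.0 FPKM after heat shock, against 19.9, 18.5 and 20.0 FPKM without it, and fell by 0.37 ± 0.06 (limma adjusted p = 0.00011). LIF in DMSO had 17.5, 17.0 and 18.1 FPKM after heat shock, against 21.7, 21.2 and 22.9 FPKM without it, and fell by 0.31 ± 0.06 (adjusted p = 0.00061). The groups of LIF did not overlap in either treatment, again with no share of all genes given. The share of CLCF1 in the ligand sum was 42.0 ± 2.0% after heat shock and 15.8 ± 1.3% without it in ML-792, and 40.5 ± 1.4% after heat shock and 17.6 ± 0.79% without it in DMSO.

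Among the receptors and STAT3 the heat shock differences were small and moved with the scaling. OSMR was higher after heat shock in DMSO (18.8 ± 1.5 against 15.6 ± 0.53 FPKM, 0.25 ± 0.06, limma adjusted p = 0.0044), a call lost when libraries were scaled to equal totals (0.03, adjusted p = 0.83). LIFR was lower after heat shock in ML-792 (1.36 ± 0.12 against 1.81 ± 0.089 FPKM, -0.26 ± 0.08, adjusted p = 0.011). STAT3 was higher after heat shock in ML-792 (14.0 ± 0.84 against 12.4 ± 0.30 FPKM, 0.16 ± 0.06, adjusted p = 0.028), but the call was lost with median-of-ratios scaling (0.06) and the difference was -0.12 with equal totals. The median of all genes was 0.10 in ML-792 and 0.05 in DMSO as deposited, and -0.15 in ML-792 and -0.16 in DMSO with equal totals. In ML-792, STAT3 stood 0.05 above the median of all genes as deposited and 0.03 above it with equal totals. In DMSO, OSMR stood 0.20 above that median both as deposited and with median-of-ratios scaling. LIF stood below that median by a log2 difference of -0.47 in ML-792 and -0.36 in DMSO. IL6ST overlapped in DMSO, with 9.98, 9.73 and 5.90 FPKM after heat shock, the third library standing below the others, against 7.80, 8.62 and 7.92 FPKM without it. In ML-792 every heat shocked library was below every other one in IL6ST, with no share of all genes given (-0.22 ± 0.15, limma adjusted p = 0.22). It was called there with equal totals (-0.48, adjusted p = 0.0399). LIFR in DMSO was not called as deposited (-0.17 ± 0.08, adjusted p = 0.081) but was with equal totals (-0.33, adjusted p = 0.0111). In all, 6 of 8 genes tested were called in ML-792, where 61.7% of all genes were, and 5 of 8 in DMSO, where 49.5% were, IL11 among them in both.

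**Figure D4:**
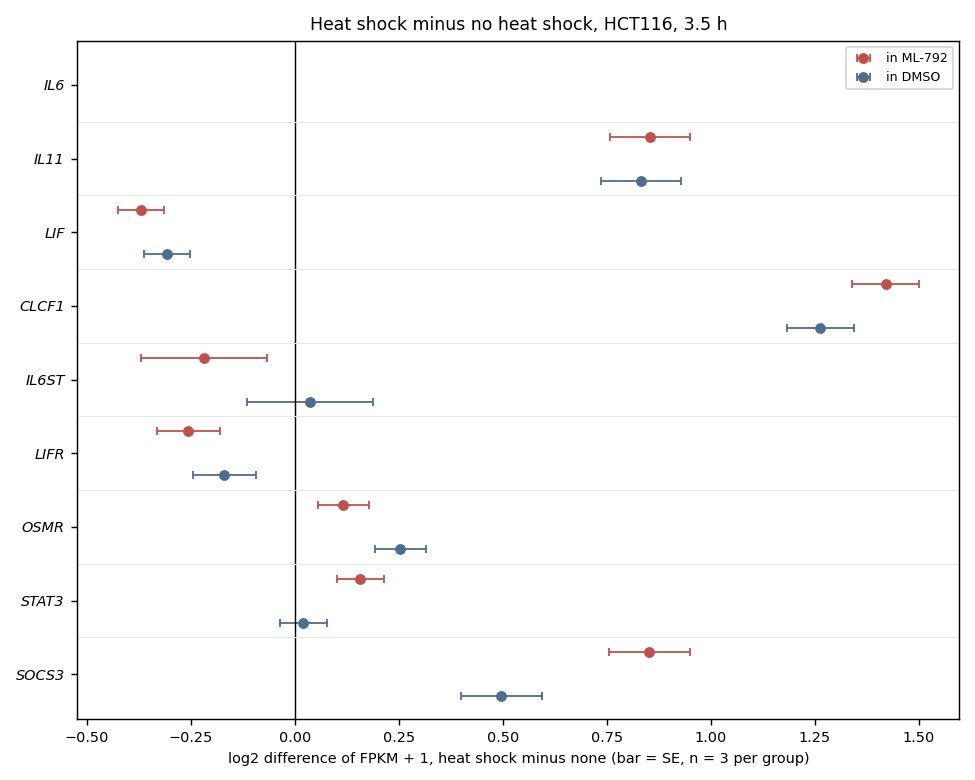
Difference of log2(FPKM + 1), heat shock minus none (x axis, bar = SE, n = 3 per group), in HCT116 cells with ML-792 (red) and with DMSO (blue), for each gene (rows, IL6 left out because both group means were under 1 FPKM). CLCF1, IL11 and SOCS3 lie right of 0 and LIF left of 0 in both treatments, and the SOCS3 points, 0.85 with ML-792 and 0.50 with DMSO, are the farthest apart.

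Within heat shocked cells, LIF, LIFR and OSMR fell with ML-792. LIF had 15.5, 15 and 14.0 FPKM with ML-792, against 17.5, 17.0 and 18.1 FPKM with DMSO, and fell by 0.23 ± 0.06 (limma adjusted p = 0.011), with no overlap. OSMR had 16.7, 15.5 and 16.9 FPKM with ML-792, against 19.9, 19.3 and 17.1 FPKM with DMSO (-0.19 ± 0.06, adjusted p = 0.035), also with no overlap (15.3% of all genes had every ML-792 library below every DMSO library). LIFR had 1.32, 1.26 and 1.49 FPKM with ML-792, against 2.00, 1.82 and 1.48 FPKM with DMSO (-0.23 ± 0.08, adjusted p = 0.036), and its groups overlapped. These 3 calls of 8 compare with 33.5% of all genes called. Fitted without the other 6 libraries, none of the 3 was called (adjusted p between 0.0988 and 0.172, with 255 of 11978 genes called), and the LIFR and OSMR calls were also lost with no filter and with equal totals. CLCF1 (11.6 ± 0.61 against 12.8 ± 1.2 FPKM) and SOCS3 (9.38 ± 1.1 against 8.99 ± 1.3 FPKM) overlapped between ML-792 and DMSO.

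No gene of the 8 tested was called by limma for a heat shock difference that depended on ML-792, where 6.41% of all genes were, and 1 had an unadjusted p under 0.05. That gene was SOCS3, whose heat shock difference was larger with ML-792 by 0.36 ± 0.14 (adjusted p = 0.108). Without the third heat shocked DMSO library, SOCS3 (0.46, adjusted p = 0.0323) and IL6ST (-0.47, adjusted p = 0.0415) were called. CLCF1 showed 0.16 ± 0.11 (adjusted p = 0.36) and LIF -0.06 ± 0.08 (adjusted p = 0.59).

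The rest of the pathway was read from lists of 5 other receptors, 21 Janus kinases, other STATs and negative regulators, and 23 genes induced through STAT3. In the heat shock comparisons of HCT116 cells, 61.7% of all genes were called in ML-792 and 49.5% in DMSO, in either direction. IL6R in ML-792 averaged 5.15 ± 0.14 FPKM after heat shock and 1.21 ± 0.15 FPKM without it, a rise of 1.48 ± 0.065 (limma adjusted p = 1.9e-09). In DMSO it averaged 6.10 ± 0.43 FPKM after heat shock and 1.51 ± 0.035 FPKM without it, a rise of 1.5 ± 0.065 (adjusted p = 1.6e-09). Of 3 other receptors tested, 3 rose in ML-792 and 2 in DMSO. Of 17 genes induced through STAT3 that were tested, 9 rose and 3 fell in ML-792, and 9 rose and 1 fell in DMSO, which is 12 of 17 beside 61.7% of all genes in ML-792 and 10 of 17 beside 49.5% in DMSO. Their median difference was 0.26 in ML-792, beside 0.10 for all genes, and 0.27 in DMSO, beside 0.05 for all genes. The kinase gene PIM1 averaged 13.0 ± 0.72 FPKM after heat shock and 4.81 ± 0.11 FPKM without it in DMSO, and rose by 1.27 ± 0.07 (adjusted p = 1.7e-08). Of 20 Janus kinases, other STATs and negative regulators, 5 rose and 3 fell in ML-792, and 7 rose and 2 fell in DMSO, beside the same 61.7% and 49.5% of all genes. PIAS4, a SUMO ligase that also restrains STATs, fell by 0.63 ± 0.07 in DMSO (adjusted p = 9.4e-06). SOCS1, a relative of SOCS3, averaged 1.23 ± 0.35 FPKM after heat shock and 0.353 ± 0.088 FPKM without it in DMSO. SOCS1 and MUC1, which is in the STAT3-induced list, passed the filter on low values only through heat shocked libraries, so no test is given for them, and any call of theirs is within the counts given.

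The heat shock difference depended on ML-792 for PIM1, which rose less with ML-792 (-0.63 ± 0.10, limma adjusted p = 0.0080), and for MCL1 (-0.30 ± 0.08, adjusted p = 0.048) and for IER3 (-0.42 ± 0.10, adjusted p = 0.038). With MUC1 these were 4 of 17 genes induced through STAT3, beside 6.41% of all genes. MUC1 passed the filter through heat shocked libraries, so nothing is read from its place in that count. For this contrast 781 genes were called as deposited, and between 211 (no filter) and 1027 (median-of-ratios scaling) with other filters, scalings and pseudocounts. Whether these list genes stayed called there was not examined. MUC1 averaged 1.94 ± 0.32 FPKM after heat shock and 0.772 ± 0.037 FPKM without it in ML-792, and 1.17 ± 0.14 FPKM after heat shock and 0.802 ± 0.074 FPKM without it in DMSO. Among the regulators SOCS2 was called (-0.55 ± 0.14, adjusted p = 0.042). In heat shocked cells, 5 of the 17 STAT3-induced genes rose and 3 fell with ML-792, beside 33.5% of all genes called, with a median difference of 0.12 beside 0.06 for all genes. In HCT116 cells at 16 h, 1 gene of these lists was called with ML-792, SOCS6, which rose by 0.29 ± 0.04 (18.3 ± 0.31 against 14.8 ± 0.33 FPKM, adjusted p = 9.4e-05). None of 19 STAT3-induced genes was called there, beside 14.7% of all genes, and 3 had an unadjusted p under 0.05. At 3.5 h without heat shock none of the 17 was called, beside 1.21% of all genes, and 5 had an unadjusted p under 0.05. The 14.7% and 1.21% are shares by adjusted p, and the shares of all genes by unadjusted p are not given.

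In the described comparisons, the genes induced through STAT3 differed in both directions. In MDAMB231 cells 8 of 19 were higher and 2 lower with ML-792 by the call rule, which took 16.9% of all genes, with a median difference of 0.16, among them the adhesion gene ICAM1 (22.6 ± 1.4 against 14.4 ± 0.89 FPKM) and IER3 (421 ± 57 against 237 ± 12 FPKM). In COLO205 cells 3 were higher and 7 lower, where the rule took 37% of all genes, with a median of -0.16, among them JUNB (19.5 ± 1.2 against 32.0 ± 2.4 FPKM) and VEGFA (57.8 ± 12 against 85.2 ± 2.9 FPKM). SERPINA3, an acute phase gene, had 1.94 ± 0.0096 FPKM with ML-792 and 0.413 ± 0.097 FPKM with DMSO in MDAMB231 cells, and 0.683 ± 0.16 FPKM with ML-792 and 1.76 ± 0.16 FPKM with DMSO in COLO205 cells. The IL11 receptor gene IL11RA was higher with ML-792 in COLO205 cells (3.74 ± 0.18 against 2.34 ± 0.31 FPKM) and overlapped in MDAMB231 cells (1.82 ± 0.56 against 1.90 ± 0.21 FPKM).

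Over all 10 groups, IL11 and CLCF1 shared the order of their highest groups, and LIF had another order. IL6 outside MDAMB231 had group means of at most 0.0103 FPKM, too low to be ordered. LIF was highest in HCT116 with DMSO at 16 h (44.6 FPKM) and lowest in COLO205 with ML-792 (9.84 FPKM), and its neighbours in that order overlapped in 2 places, COLO205 with DMSO beside HCT116 with ML-792 at 3.5 h, and MDAMB231 with DMSO beside heat shocked HCT116 with ML-792. CLCF1 was highest in MDAMB231 with ML-792 (17.1 FPKM), followed by MDAMB231 with DMSO and the heat shocked groups, which overlapped each other. IL11 in the heat shocked groups stood between MDAMB231 with DMSO and HCT116 at 16 h. The genes most like each of 4 members in log2(FPKM + 1) over the 10 group means, among 8815 genes at 5 FPKM or more in some group, are given as a description, since the groups share a line, a run and a scale. IL6 was most like APCDD1L (Pearson r = 0.9997), SHISA2 (0.9996) and EVI2B (0.999), and IL11 was most like NTN4 (0.967), UCN2 (0.962) and SHISA2 (0.936). The r values of IL6 rest on the MDAMB231 groups, since IL6 and the genes most like it averaged at most 0.237 FPKM in every other group. LIF was most like the ETS factor gene ETV5 (0.986), HAGHL (0.921) and CEP170B (0.886), and SOCS3 was most like ISG15 (0.981), BSG (0.979) and MAP2K2 (0.978). UCN2 had 8.48 ± 1.0 FPKM with ML-792 and 3.93 ± 0.061 FPKM with DMSO in MDAMB231 cells, and 1.36 ± 0.15 FPKM after heat shock and 0.199 ± 0.0019 FPKM without it in HCT116 cells with DMSO. ETV5 had 20.5 ± 0.32 FPKM with ML-792 and 23.4 ± 1.3 FPKM with DMSO in HCT116 cells at 16 h, and 12.4 ± 1.2 FPKM with ML-792 and 16.9 ± 0.66 FPKM with DMSO in COLO205 cells.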

How the data were processed

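Polyadenylated RNA of 3 cell lines was sequenced in 30 libraries (a stranded kit, per the labels' protocols). The authors deposited FPKM per gene, 1 table of 30373 genes, and all columns were used. DESeq2 1.10.1 appears, with no role, in the submitters' processing notes. No aligner, genome build or annotation for the table is given in the sources used here. The 9 genes and the lists were chosen with earlier results of these data known. Linear models on log2(FPKM + 1) were fitted with limma 3.58.1 in R 4.3.3, using eBayes with its trend and robust options. A gene entered a fit if 3 or more of its libraries reached 1 FPKM. There were 3 fits: 18 libraries of 16 h (14251 genes), 12 of 3.5 h (12191) and 12 HCT116 libraries without heat shock (12462). The fit was checked on simulated data. Of 12 comparisons, 10 were tested and 2 described. Alternatives were other pseudocounts, filters and scalings, separate fits and leaving out each library. All 9 genes are named; of a list, up to 4 called genes with the largest change. Depth was estimated from ratios of values under 0.3 FPKM, scaled by the smallest steps of 1 library, so its scale is approximate. A ratio of means is given where both means reach 0.1 FPKM. Identical values were found in 0 of 30 replicate pairs. Sequences are from RefSeq, GRCh38.p14. The list of other ligands is not reported here.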

Additional observations from a re-analysis of the deposited data

Results flagged for a closer look

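The ML-792 difference of LIF in HCT116 cells was larger at 16 h than at 3.5 h (-0.327 on the log2 scale, limma adjusted p = 0.0285), with values of -0.49 at 16 h and -0.17 at 3.5 h. The CLCF1 difference ran in different directions between lines. In MDAMB231 cells every ML-792 library was above every DMSO library (0.134 ± 0.08), as in 17.3% of all genes, but the call rule did not take it. In HCT116 cells every ML-792 library was below every DMSO library, at 16 h (-0.451) and at 3.5 h (-0.292, not called). The same held in COLO205 cells (-0.517). Of all genes, 13.1%, 13.3% and 23.7% were lower in this way in those settings, in that order. The difference of CLCF1 between the lines was not tested.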

How the results depend on the processing

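In the tested comparisons of the named genes, 994 of 1076 alternative values kept direction and call, 40 lost a call, 12 gained one and 30 changed sign. In the 2 comparisons described without a test, 4 of 182 changed sign. The causes were not tested. With HCT116 cells at 3.5 h, 3 genes were called when their groups were fitted alone. In heat shocked cells (ML-792 against DMSO), 1 gene was called with no filter, 1 with equal totals and 0 with the groups alone, and 1 to 4 without 1 library. The count was 1 without ML-792 replicate 2 or DMSO replicate 1 or 2, and without DMSO replicate 3 IL6ST was called too (-0.45, limma adjusted p = 0.0073). For the dependence of heat shock on ML-792, 0 to 2 genes were called without 1 library, 2 without heat shocked DMSO replicate 3. For 16 h minus 3.5 h, 0 genes were called with no filter and 0 to 2 without 1 library. The LIF call there held only when the library left out was 16 h ML-792 or DMSO replicate 1, 3.5 h ML-792 replicate 2 or 3.5 h DMSO replicate 3, and without 16 h ML-792 replicate 1 IL6ST was also called (0.24, adjusted p = 0.0477). IL6ST in HCT116 cells at 16 h stayed called without ML-792 replicate 1 only, and STAT3 between COLO205 and HCT116 was lost without HCT116 DMSO replicate 2 or COLO205 DMSO replicate 1 or 2.

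In the tested comparisons the changes of sign were all in small, uncalled differences except for STAT3 with heat shock in ML-792. For ML-792 in heat shocked cells, STAT3 was -0.0102 when scaled by median of ratios and -0.0278 with equal totals, and SOCS3 was -0.0086 with equal totals. Without 1 library IL11 ran between -0.168 and 0.0222, STAT3 between -0.0036 and 0.0788 and SOCS3 between -0.024 and 0.1656. At 3.5 h without heat shock IL6ST ran between -0.0042 and 0.0597. For heat shock in DMSO, median-of-ratios scaling gave -0.0049 for IL6ST and -0.022 for STAT3, and equal totals gave -0.1757 and -0.202. Without 1 library IL6ST ran between -0.0822 and 0.2532 and STAT3 between -0.0168 and 0.0581. For heat shock in ML-792, equal totals gave -0.1635 for OSMR and -0.1195 for STAT3. For the dependence of heat shock on ML-792, IL11 was -0.0021 with a pseudocount of 5, -0.0061 when scaled by median of ratios and -0.0049 with equal totals, and ran between -0.1011 and 0.0892 without 1 library. For 16 h minus 3.5 h, OSMR was -0.0102 when scaled by median of ratios and -0.0182 with equal totals, and ran between -0.0315 and 0.0385 without 1 library. In the described comparisons a pseudocount of 5 gave IL11 1.88 and IL6 0.85 in MDAMB231 cells, and LIF -0.79, CLCF1 -0.27 and SOCS3 -0.28 in COLO205 cells. Without 1 library SOCS3 in COLO205 cells ran between -0.93 and -0.43, and the signs that changed there were of IL6ST in COLO205 cells (-0.07 to 0.06) and SOCS3 in MDAMB231 cells (-0.0038 to 0.12). No paired analysis was possible because replicates carry no number in the labels that would link one group to another. The p-values measure the spread between these samples, since separate cultures are not described beyond the word triplicates, and FPKM values carry no counts, so no counting interval is given.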
